A study of Mus musculus with 48 samples.

Results

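The genes described here are 10 markers of thermogenic (heat-producing) fat cells: Ucp1, Dio2, Cidea, Cox8b, Cox7a1, Ppargc1a, Prdm16, Ebf2, Adrb3 and Kcnk3. They were chosen by symbol, with earlier results of these data known. All 10 were found among the 30055 genes of the deposited count table and passed the filter on low counts, as did 18325 genes in all. They are followed across 24 messenger RNA libraries of visceral white adipose tissue (WAT), in 8 groups of 3 libraries set by sex, diet and time. The mice were C57BL6/J males and females from Charles River Laboratories that stayed on a regular diet (RD, Teklad standard rodent chow) or received a high-fat diet (HFD, Research Diets, 45% of calories from fat) from 8 weeks of age. Tissue was taken after 2 or 12 weeks of feeding from 2 separate cohorts, so weeks on diet, age and cohort cannot be told apart. The study compares the sexes and the diets, and all groups share the strain, the supplier and the starting age. The labels do not name the visceral depot, and the numbers in the sample names are used below to name libraries.

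Thermogenic fat cells burn fuel to make heat. Noradrenaline binds β-adrenergic receptors, raises cyclic AMP inside the cell and drives transcription of UCP1, a carrier in the inner mitochondrial membrane that lets protons flow back without making ATP. Brown fat holds such cells permanently, and white depots can gain them, then called beige, under cold or β-adrenergic stimulation. Visceral white fat of mice is known as a depot that resists this change in comparison with the fat under the skin.

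The promoters of Dio2, Ppargc1a and Ucp1 are shown because all 3 genes are known targets of cyclic AMP signalling. Dio2 and Ppargc1a were also called in females in opposite directions with diet at the 2 times, each close to the threshold. Each line is the 250 bases before the RefSeq transcription start on the gene's own strand, read 5′ to 3′ from the RefSeq table on GRCm38.p6. Capitals mark matches to the cyclic AMP response element TGACGTCA or its 5-base core TGACG, searched on both strands, and the full element contains the core. The windows are chr12:90739039-90739288 (minus strand) for Dio2, chr5:51567726-51567975 (minus strand) for Ppargc1a and chr8:83290098-83290347 (plus strand) for Ucp1.
Dio2: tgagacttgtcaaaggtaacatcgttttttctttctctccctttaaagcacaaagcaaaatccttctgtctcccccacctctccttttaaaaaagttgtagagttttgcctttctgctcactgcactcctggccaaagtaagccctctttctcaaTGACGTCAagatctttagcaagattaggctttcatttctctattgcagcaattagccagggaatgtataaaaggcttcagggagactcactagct
Ppargc1a: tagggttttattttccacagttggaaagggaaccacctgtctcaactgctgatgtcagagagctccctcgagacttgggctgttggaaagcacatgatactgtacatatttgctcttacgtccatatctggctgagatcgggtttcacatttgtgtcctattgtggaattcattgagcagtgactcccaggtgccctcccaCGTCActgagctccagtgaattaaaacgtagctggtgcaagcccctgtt
Ucp1: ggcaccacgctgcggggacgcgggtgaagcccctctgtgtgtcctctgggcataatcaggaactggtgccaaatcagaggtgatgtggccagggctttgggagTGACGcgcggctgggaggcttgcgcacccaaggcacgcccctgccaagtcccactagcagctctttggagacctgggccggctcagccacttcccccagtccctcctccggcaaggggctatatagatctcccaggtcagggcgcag

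Of the 10 genes, 6 were in that promoter table: the 3 above with Prdm16, Cox7a1 and Cox8b. The full element stood in 1 of the 6, in Dio2, with its first base 95 bases before the start, and 1.55% of 32851 promoters of the same length held it. The core stood in 3 of the 6, in Dio2, in Ppargc1a (49 bases before the start) and in Ucp1 (147 bases before), against 17.8% of all promoters. The TATA box letters TATAAA, searched on both strands, were found in Dio2 alone among the 6 and in 12.4% of all promoters. A match describes letters in this window and nothing more. The GENCODE M21 start of Dio2 lies 600 bases downstream of the RefSeq start used here.

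The 24 WAT libraries held 44.7 to 105 M expected counts. The summed level of 12 adipocyte markers was 37900 to 65400 CPM (counts scaled to library size, with TMM factors) in 23 libraries and 16800 in HFD female library 1 at 2 weeks, where Adipoq was at 880 CPM against 1710 to 4010 elsewhere. That library, RD male library 4 at 12 weeks and RD male library 8 at 2 weeks were also the 3 highest in 7 smooth muscle markers, at 6160, 5490 and 3780 CPM. Crisp1, made by the epididymis, reached 970 to 6500 CPM in 6 male libraries (all 3 on RD at 12 weeks, libraries 6 and 8 on RD and library 13 on HFD at 2 weeks) and was at most 6.30 CPM in the others. The summed level of 11 epididymis markers was 1.34 to 5.02 CPM in 11 female libraries and 2200 CPM in HFD female library 1 at 2 weeks, where it was nearly all Lcn2, a secreted lipocalin, with 6 of the other markers at 0. That library also held 8 epithelial markers at a sum of 1250 CPM, against 16.6 to 56.3 in the other females and 6.11 to 563 in males (Cdh1 298 and Krt8 303 CPM). The 14 skeletal muscle markers summed to 10.1 to 266 CPM, with at most 2 of the 14 at 0 in any library. In whole tissue, fewer cells of a type and less RNA per cell cannot be told apart. Nothing in the labels says that the 3 libraries of a group came from separate animals, so the p-values measure the spread between these libraries.

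**Figure D1:**
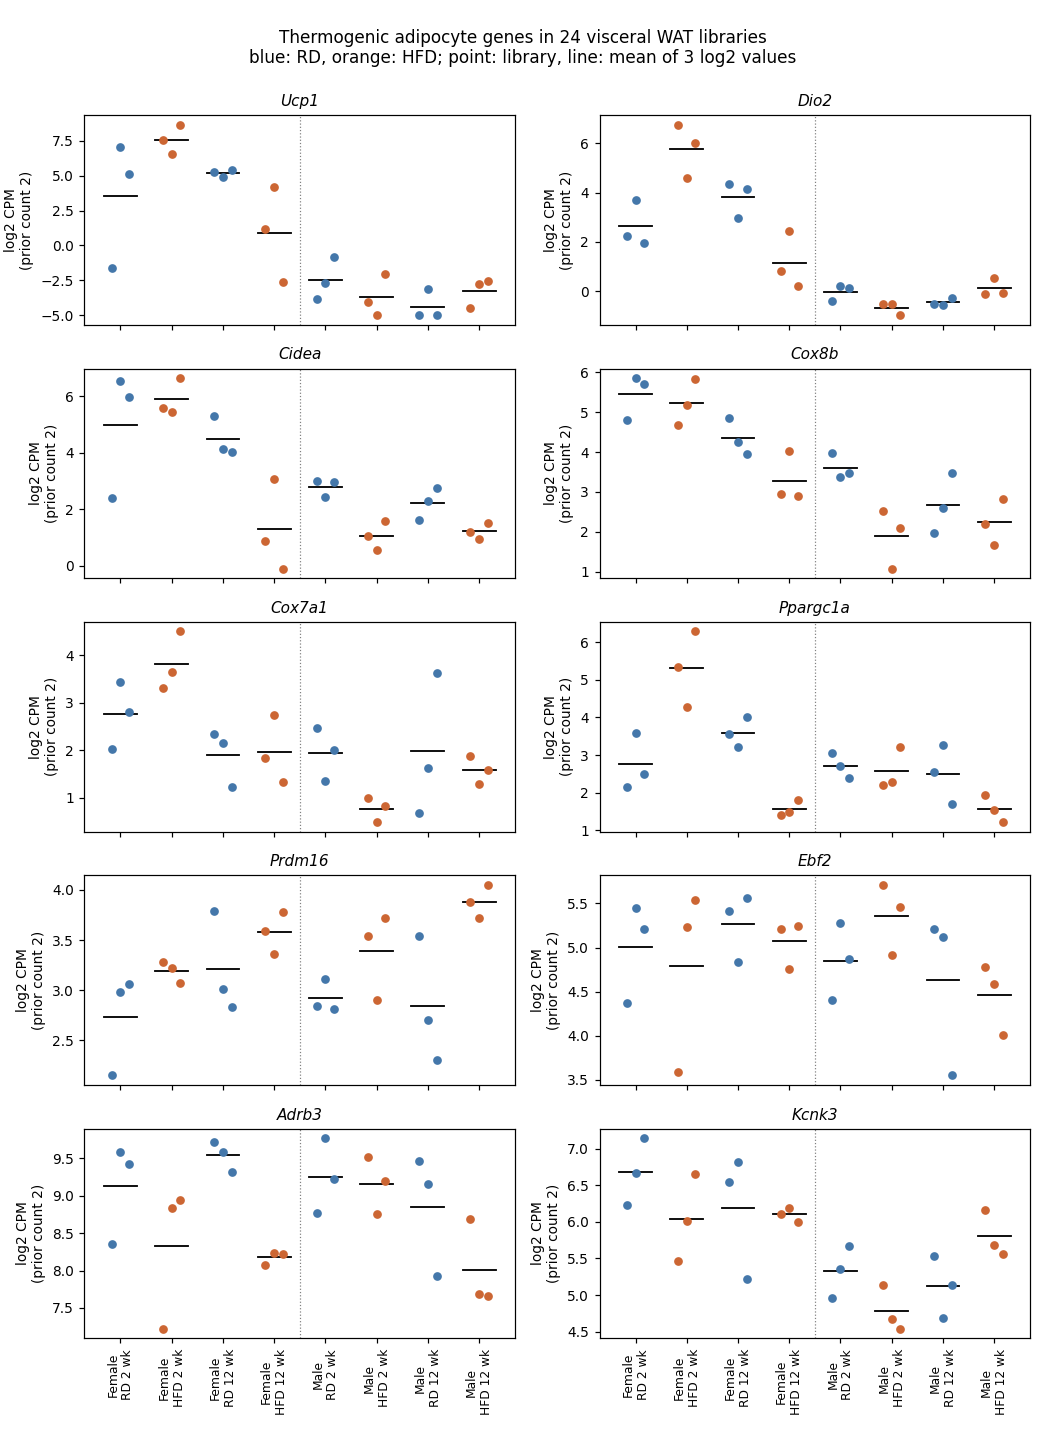
Levels of the 10 thermogenic adipocyte genes in the 24 visceral WAT libraries, as log2 CPM with a prior count of 2 on a separate vertical axis for each gene. Points are libraries, black lines the means of 3, blue RD and orange HFD, with the 4 female groups on the left; Ucp1, Dio2 and Cidea lie mostly higher on the left, and Ebf2 and Adrb3 overlap between the sexes.

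Ucp1, the proton carrier itself (chr8:83290352-83298452, plus strand, GENCODE M21 on GRCm38), was present in nearly all female libraries and close to absent in males. In HFD females at 2 weeks it stood at 188, 93.7 and 401 CPM in libraries 1, 2 and 5. In RD females at 2 weeks it stood at 0.293, 131 and 35.6 CPM in libraries 1, 2 and 4. The HFD libraries overlapped the RD libraries, because RD library 2 lay above HFD library 2. In RD females at 12 weeks the values were 37.9, 29.2 and 41.5 CPM, the tightest of the female groups. In HFD females at 12 weeks they were 2.24, 17.9 and 0.131 CPM, all below the 3 RD libraries of that time. The 12 male libraries ran from 0 to 0.521 CPM, which is 0 to 55.54 expected counts per library, and 3 of the 12 were listed at 0.

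The order of the Ucp1 group means was HFD females at 2 weeks (228 ± 158 CPM, SD, n = 3), RD females at 2 weeks (55.5 ± 67.4), RD females at 12 weeks (36.2 ± 6.33), HFD females at 12 weeks (6.76 ± 9.71) and then the 4 male groups (0.0274 to 0.227). Neighbours in that order overlapped in their libraries, except RD and HFD females at 12 weeks, which did not. RD female library 1 at 2 weeks and HFD female library 7 at 12 weeks lay inside the male range. No diet or time comparison of Ucp1 passed the edgeR test. The closest was the lower level at 12 than at 2 weeks in HFD females, with a log2 fold change of -5.07 ± 1.5 (SE) and an edgeR adjusted p of 0.087. The adjusted p was 0.027 by DESeq2 and 0.049 without HFD female library 2 of 2 weeks, the lowest of its group in Ucp1.

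Scaled per kilobase of exon, which allows genes to be set side by side, Ucp1 changed its rank among the 10 genes between groups. In HFD females at 2 weeks it was at 139 CPM per kb, above Cox8b at 109, Adrb3 at 108 and Cidea at 57.3, and below Adipoq at 1680. In RD males at 12 weeks it was at 0.0167 CPM per kb, the lowest of the 10, while Adrb3 was at 150. Adrb3 was the highest of the 10 per kb in all 4 male groups and in 3 of the 4 female groups. Ucp2 and Ucp3, its relatives in the carrier family that are not heat makers of brown fat, were at 11.6 to 44.4 and 6.22 to 16.2 CPM per kb over the 8 groups. In HFD females at 2 weeks the level of Ucp1 was therefore above both, and in every male group it was below both.

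**Figure D2:**
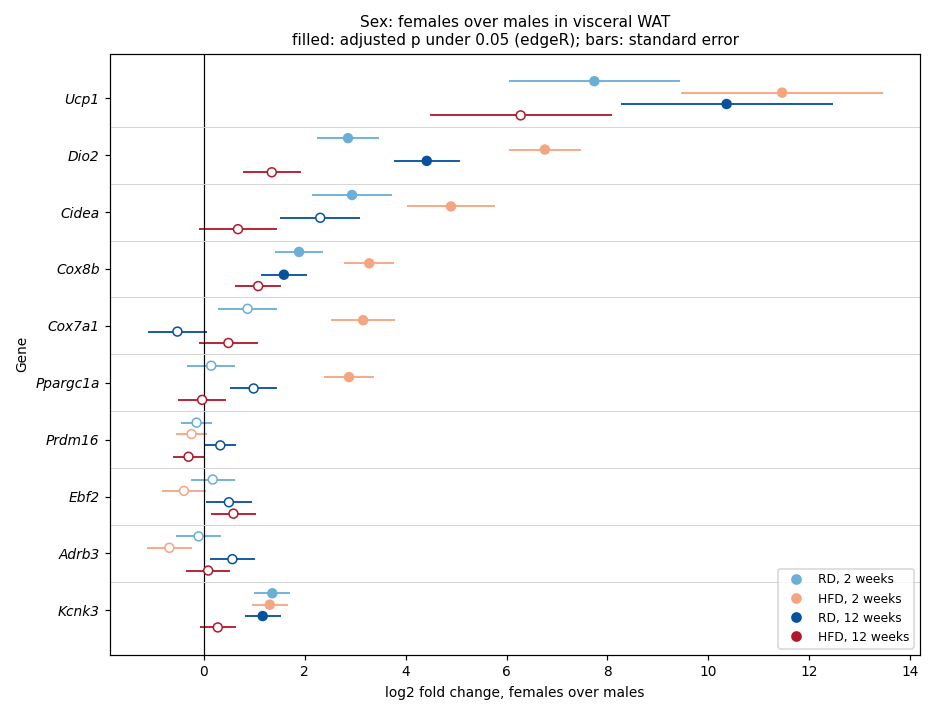
Log2 fold change, females over males, of the 10 genes in the 4 comparisons of sex, with bars of 1 SE. Filled points passed an adjusted p under 0.05; Ucp1, Dio2, Cox8b and Kcnk3 are filled in 3 of the 4 comparisons, and none is filled on HFD at 12 weeks.

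Sex was the comparison in which most of the 10 genes differed. The labels do not say that both sexes gave the same visceral depot, so sex and depot cannot be told apart here. On HFD at 2 weeks 7 of the 10 were higher in females and none lower, against 3.8% of all genes tested that were called in either direction and 2% that were called higher. The 7 were Ucp1, Dio2, Cidea, Cox8b, Cox7a1, Ppargc1a and Kcnk3, and in each of them the 3 female libraries lay above the 3 male libraries, which holds for 9.64% of all genes in that direction. On RD at 2 weeks 5 were higher in females (Ucp1, Dio2, Cidea, Cox8b and Kcnk3), against 4.28% called and 1.94% called higher, and in 3 of the 10 the sexes did not overlap, against 12.8%. On RD at 12 weeks 4 were higher (Ucp1, Dio2, Cox8b and Kcnk3), against 10.6% called and 4.45% called higher, and in 4 of the 10 (with Cidea in place of Kcnk3) they did not overlap, against 13.1%. On HFD at 12 weeks none of the 10 passed the edgeR test, against 2.85% called (522 genes; 2541 genes had an unadjusted p under 0.05), and DESeq2 called 1, Ucp1. The median log2 fold change of the 10 genes was 3.02, 1.12, 1.08 and 0.54 in this order, beside medians over all genes of 0, 0, -0.02 and 0.01. With the spread estimated from the 6 compared libraries alone, 2, 2, 3 and 0 of the 10 were called. All genes called there were 28 of 16660, 549 of 16343, 1463 of 17137 and 1167 of 16067. Scaled to the adipocyte markers, 7, 1, 2 and 0 of the 10 were called, beside 440, 236, 235 and 170 of 18325 genes. That scale raises every gene in HFD female library 1 at 2 weeks, which had the lowest marker sum (16800 CPM). With TMM scaling, leaving out 1 library gave 5 to 7, 0 to 5, 2 to 3 and 0 to 1 of the 10. Ucp1, at most 0.521 CPM in the 12 male libraries, passed the filter on low counts through the female libraries. Its calls between the sexes are therefore not independent of that filter.

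Ucp1 was higher in females than in males by a log2 fold change of 11.46 ± 2.0 on HFD at 2 weeks (adjusted p = 0.0055), 7.74 ± 1.7 on RD at 2 weeks (0.019) and 10.36 ± 2.1 on RD at 12 weeks (0.0088), by edgeR's quasi-likelihood test. These sizes rest on male libraries with few or no counts and so are imprecise. On HFD at 12 weeks the value was 6.28 ± 1.8 with an adjusted p of 0.070, and 0.049 without HFD female library 7, the lowest of its group in Ucp1. On RD at 2 weeks the libraries overlapped, and the call was lost without RD female library 2 (6.12, adjusted p = 0.069), RD male library 6 (0.081) or RD male library 7 (0.063).

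Dio2 encodes the deiodinase that turns thyroxine into the active thyroid hormone inside the fat cell (chr12:90724552-90738438, minus strand). It stood at 108, 24 and 64.3 CPM in HFD females at 2 weeks and at 0.654, 0.669 and 0.476 CPM in HFD males. RD females at 2 weeks had 4.69, 12.9 and 3.80 CPM, and RD males 0.728, 1.13 and 1.06 CPM. At 12 weeks RD females had 20.2, 7.73 and 17.8 CPM, and RD males 0.667, 0.655 and 0.804 CPM. Every female library lay above every male library of the same diet and time in these 3 comparisons. The log2 fold changes were 6.76 ± 0.72 (adjusted p = 4.1e-05), 2.86 ± 0.61 (0.014) and 4.42 ± 0.65 (0.00088) by edgeR. The second of these was lost without RD female library 2 (2.12, adjusted p = 0.077) or RD male library 6 (0.070). In HFD mice at 12 weeks the female libraries, at 1.73, 5.39 and 1.13 CPM, overlapped the male libraries at 0.895, 1.42 and 0.932 CPM, with a log2 fold change of 1.35 ± 0.58 (adjusted p = 0.29).

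**Figure D3:**
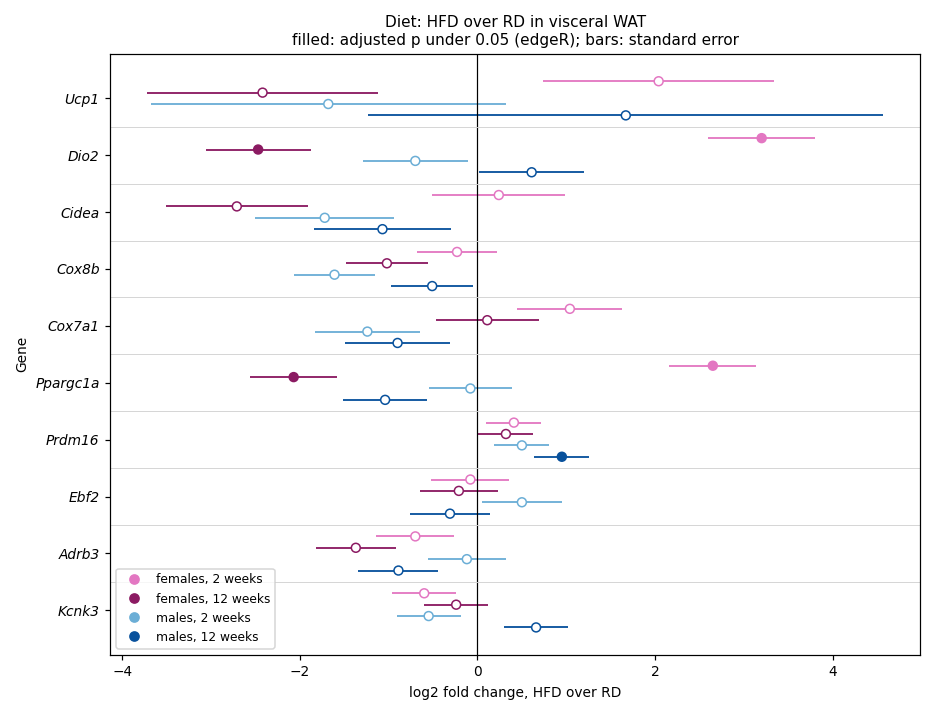
Log2 fold change, HFD over RD, of the 10 genes in females and males at 2 and 12 weeks, with bars of 1 SE. Filled points passed an adjusted p under 0.05: Dio2 and Ppargc1a in females lie at 3.20 and 2.65 at 2 weeks and at -2.47 and -2.07 at 12 weeks, and Prdm16 in males lies at 0.95 at 12 weeks.

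In females Dio2 and Ppargc1a were called higher on HFD at 2 weeks and lower at 12 weeks, each call close to the threshold. Ppargc1a encodes PGC-1α, the coactivator that drives the making of mitochondria and the transcription of Ucp1 (chr5:51454250-51567726, minus strand). At 2 weeks HFD females had 40.8, 19.3 and 77.9 CPM of Ppargc1a against 4.43, 12.0 and 5.61 CPM on RD. At 12 weeks HFD females had 2.62, 2.76 and 3.46 CPM against 11.7, 9.13 and 16.1 CPM on RD. The libraries of the 2 diets overlapped at neither time. On RD the difference between the times did not pass the test, with log2 fold changes of 0.75 ± 0.47 for Ppargc1a and 1.10 ± 0.56 for Dio2 (adjusted p = 0.73 for both).

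At 2 weeks Dio2 rose on HFD in females by a log2 fold change of 3.20 ± 0.60 (adjusted p = 0.045) and Ppargc1a by 2.65 ± 0.49 (adjusted p = 0.042). These were 2 of the 10 genes, against 0.235% of all genes tested called and 0.0982% called higher, and 3 of the 10 lay higher without overlap (Prdm16 is the other), against 9.65% of all genes. At 12 weeks Dio2 fell by 2.47 ± 0.59 on the log2 scale (adjusted p = 0.033) and Ppargc1a fell by 2.07 ± 0.49 (adjusted p = 0.030). These were again 2 of the 10, against 2.08% called and 0.775% called lower. Another 3, Ucp1, Cidea and Adrb3, lay lower on HFD without overlap and did not pass the edgeR test, so that 5 of the 10 did not overlap, against 13.9% of all genes in that direction. Their values were -2.42 ± 1.3 (adjusted p = 0.43), -2.71 ± 0.80 (0.094) and -1.37 ± 0.45 (0.14). Cidea passed by DESeq2 (adjusted p = 0.0071) and without HFD female library 6 (-4.15, adjusted p = 0.032), the highest of its group in Cidea.

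Each of these 4 calls stood close to the threshold. At 2 weeks neither gene was called without HFD female library 1 (adjusted p of 0.13 for Dio2 and 0.058 for Ppargc1a), RD female library 1 (0.12 and 0.12), library 2 (0.078 and 0.078) or library 4 (0.21 and 0.21), with log2 fold changes of 2.63 to 3.94 for Dio2 and 2.04 to 3.20 for Ppargc1a over the 6 libraries left out. HFD female library 1, the library low in adipocyte markers and high in epithelial and smooth muscle markers, had the highest Dio2 level of all. The 8 epithelial markers had a median log2 fold change of 5.92 in this comparison with none called, and without that library the fold changes were 2.63 for Dio2 and 2.73 for Ppargc1a. With all libraries, scaling to the adipocyte markers gave 4.41 for Dio2 and 3.42 for Ppargc1a (adjusted p = 0.048 and 0.020). Under that scale every gene in HFD female library 1 rises, because its marker sum was the lowest, at 16800 CPM. Neither gene was called with no filter on low counts, with the compared groups alone or without the 3 libraries high in smooth muscle markers. At 12 weeks Ppargc1a lost its call without any 1 of the 6 libraries (adjusted p of 0.055 to 0.14, log2 fold change -2.24 to -1.81). Dio2 lost it without HFD library 3 (0.15) or 7 (0.15) or RD library 5 (0.14) or 8 (0.075), with values of -3.40 to -2.09.

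The change of the diet effect between the times was tested on its own, in a comparison added after these values had been seen. The diet effect at 12 weeks minus that at 2 weeks in females was -5.67 ± 0.84 on the log2 scale for Dio2 and -4.71 ± 0.69 for Ppargc1a (adjusted p = 0.0096 for both, edgeR). They were 2 of the 10 genes, against 0.0709% of all genes called (13 genes) and 0.0218% called lower. Both were called with any 1 of the 12 libraries left out, with values of -6.60 to -5.11 for Dio2 and -5.26 to -4.10 for Ppargc1a. With the spread estimated from the 4 female groups alone, neither was called (adjusted p = 0.31 and 0.13). The same comparison in males gave 0 of the 10, against 5.6% of all genes.

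Along time on HFD, 4 of the 10 genes were lower at 12 than at 2 weeks in females, against 1.51% of all genes called and 0.606% called lower, and 6 of the 10 lay lower without overlap, against 11%. They were Dio2 (-4.56 ± 0.64, adjusted p = 0.0014), Ppargc1a (-3.96 ± 0.53, 0.00086), Cidea (-4.11 ± 0.85, 0.023) and Cox8b (-1.91 ± 0.47, 0.047). The first pair held with any 1 library left out, Cidea was lost without HFD library 3 (adjusted p = 0.11) or 7 (0.10) of 12 weeks, and Cox8b was lost without 5 of the 6, all but HFD library 2 of 2 weeks (adjusted p of 0.062 to 0.19). With the spread estimated from the compared groups alone, none of the 4 was called in females, nor any of 16209 genes. In HFD males none of the 10 passed with the shared spread, against 12.1% of all genes. On RD, edgeR called no gene between the times in females (1149 genes had an unadjusted p under 0.05) or in males (1394).

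In males 1 of the 10 genes changed with diet, Prdm16 at 12 weeks. At 2 weeks edgeR called none of the 10 and no gene at all (0%), while 2022 genes had an unadjusted p under 0.05 and DESeq2 called 128. Without overlap, 4 of the 10 lay lower on HFD, against 10% of all genes in that direction: Cox8b, Cidea, Cox7a1 and Dio2, with log2 fold changes of -1.61 ± 0.46, -1.72 ± 0.78, -1.24 ± 0.59 and -0.70 ± 0.59 (adjusted p = 0.36, 0.44, 0.45 and 0.66). At 12 weeks Prdm16 rose, and this 1 call in 10 stands against 28.2% of all genes called and 13.2% called higher.

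Whether the diet effect differed between the sexes was tested directly. At 2 weeks the difference of the diet effects, females minus males, was 3.90 ± 0.83 for Dio2 and 2.73 ± 0.67 for Ppargc1a (adjusted p = 0.65 for both in edgeR, which called none of the 10 and no gene of the 18325, 0%, with 1246 at an unadjusted p under 0.05). DESeq2 called 72 genes there, among them Dio2 (adjusted p = 0.0015) and Ppargc1a (0.019). At 12 weeks the difference for Dio2 was -3.07 ± 0.83 (adjusted p = 0.072), and none of the 10 passed, against 1.25% of all genes. It passed without HFD female library 6 (-4.01, adjusted p = 0.031), the highest of its group in Dio2.

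Cidea coats lipid droplets and is used as a marker of brown fat cells. It stood at 48.2, 43.4 and 100 CPM in HFD females at 2 weeks and at 2.01, 1.44 and 2.97 CPM in HFD males, a log2 fold change of 4.90 ± 0.88 (adjusted p = 0.0059). On RD at 2 weeks the females had 5.24, 93.7 and 63.2 CPM and the males 7.93, 5.40 and 7.75 CPM, so female library 1 lay below all 3 males. The difference there was 2.94 ± 0.80 (adjusted p = 0.045), and it was lost without RD female library 2 (0.17) or 4 (0.12) or any of the 3 RD male libraries (0.11 to 0.13). On RD at 12 weeks the females, at 39.2, 17.4 and 16.2 CPM, lay above the males at 3.07, 4.83 and 6.75 CPM without passing the test (2.31 ± 0.79, adjusted p = 0.062). In HFD females at 12 weeks the values were 1.80, 8.40 and 0.899 CPM, and those of HFD males were 2.25, 1.90 and 2.82 CPM.

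Ucp1 and Cidea were high and low in the same female libraries. Over all 24 libraries, with each group centred on its mean, log2 CPM of the 2 genes had a Pearson r of 0.88 and a Spearman rho of 0.69. Adjusted over 9 genes paired with Ucp1, the permutation p was 0.0159 and 0.0366. In the 12 female libraries alone, a reading not planned at the start, r was 0.95 and rho 0.84 (permutation p = 0.00496 and 0.0148, adjusted 0.0446 and 0.132). Without RD female library 1 of 2 weeks and HFD female library 7 of 12 weeks, the libraries farthest from the median, r was 0.89 with an adjusted permutation p of 0.168, so the relation passed only with those libraries. None of the other 8 genes passed in females, with r from 0.28 for Ebf2 to 0.77 for Cox7a1. Apart from the value over all 24 libraries, r was taken within females, because no male library was above 0.521 CPM of Ucp1.

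**Figure D4:**
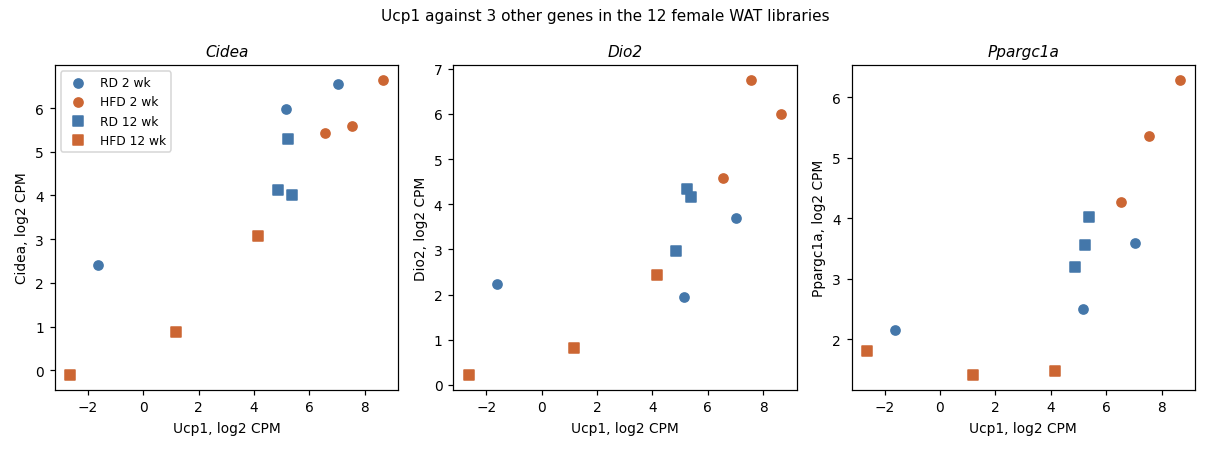
Ucp1 against Cidea, Dio2 and Ppargc1a in the 12 female WAT libraries, each axis in log2 CPM with a prior count of 2; circles are 2 weeks, squares 12 weeks, blue RD and orange HFD. The points rise together most closely for Cidea (group-centred r = 0.95), and for Dio2 and Ppargc1a the group-centred r was 0.60 and 0.44.

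Cox8b and Cox7a1 are forms of 2 cytochrome c oxidase subunits that are found in heart, skeletal muscle and brown fat, in place of the common forms Cox8a and Cox7a2. Cox8b stood at 25.5, 36 and 56.3 CPM in HFD females at 2 weeks and at 5.73, 2.09 and 4.30 CPM in HFD males (log2 fold change 3.28 ± 0.49, adjusted p = 0.0014). The RD libraries of 2 weeks stood at 28.1, 57.8 and 51.9 CPM in females and 15.7, 10.3 and 11 CPM in males (1.89 ± 0.47, adjusted p = 0.029). On RD at 12 weeks it stood at 28.7, 19.1 and 15.4 CPM in females and 3.93, 6.04 and 11 CPM in males (1.59 ± 0.46, adjusted p = 0.039). The sexes did not overlap in any of these. The first call held with any 1 library left out; on RD at 2 weeks the call was lost without any 1 library but RD female library 1 (adjusted p of 0.066 to 0.10), and at 12 weeks without any 1 but RD male library 4 (0.066 to 0.13).

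Cox7a1 differed between the sexes on HFD at 2 weeks, at 9.94, 12.6 and 22.6 CPM in females and 1.94, 1.37 and 1.73 CPM in males (3.16 ± 0.63, adjusted p = 0.011, or 0.053 without HFD male library 13). In the other 3 comparisons of sex it did not pass, with adjusted p of 0.45 to 0.81. The common forms did not pass in that comparison, with log2 fold changes of -0.01 ± 0.24 for Cox8a (adjusted p = 0.99) and 0.23 ± 0.33 for Cox7a2 (0.78).

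Set against the common form per length, Cox8b made up 21.5, 16.0 and 26.4% of Cox8b and Cox8a together in HFD females at 2 weeks. It made up 10.5, 20.8 and 17.8% in RD females at 2 weeks, 9.05 to 12.6% in RD females and 4.79 to 10.6% in HFD females at 12 weeks, and 1.49 to 6.52% in the 12 males. Cox7a1 made up 18.9, 14.7 and 26.8% of Cox7a1 and Cox7a2 in HFD females at 2 weeks and 2.71 to 10.1% in all other libraries. The share of Cox7a1 in HFD females at 2 weeks thus lay above that in every other library, while the share of Cox8b overlapped between the diets at 2 weeks. The common form enters that share, and Cox7a2 was at 75.5, 129 and 109 CPM in HFD females at 2 weeks and 233, 172 and 183 CPM in RD females (-0.90 ± 0.33, adjusted p = 0.13). The level of Cox7a1 itself overlapped between these diets, at 9.94 to 22.6 and 4.06 to 10.9 CPM, and its diet change did not pass (1.04 ± 0.59, adjusted p = 0.31).

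**Figure D5:**
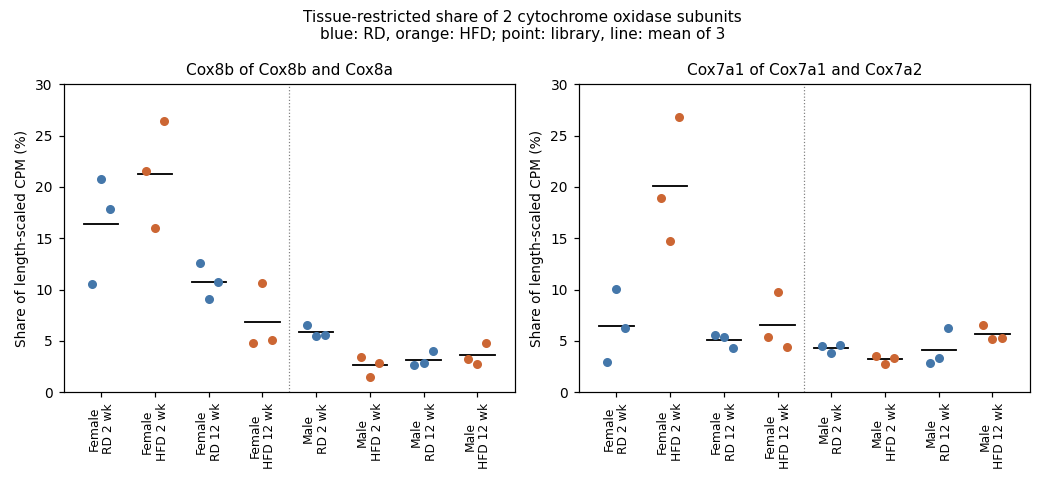
Share of Cox8b in the sum of Cox8b and Cox8a (left) and of Cox7a1 in the sum of Cox7a1 and Cox7a2 (right), in percent of length-scaled CPM, for each of the 24 WAT libraries (points) with the mean of 3 (lines). HFD females at 2 weeks hold 16.0 to 26.4% Cox8b and 14.7 to 26.8% Cox7a1, and males hold at most 6.52% Cox8b.

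Skeletal muscle also makes Cox8b and Cox7a1, and its markers moved with sex in part of the data. On RD at 2 weeks 8 of the 14 skeletal muscle markers were higher in females and none lower, against 4.28% of all genes called and 1.94% called higher. Their summed level there was 18.6, 148 and 266 CPM in females and 74.1, 50 and 208 CPM in males. On HFD at 2 weeks 2 of the 14 were higher, against 3.8% of all genes called and 2% called higher. The sums there were 55.1, 22.3 and 108 CPM in females and 39.2, 62.5 and 28.8 CPM in males. On RD at 12 weeks none of the 14 was called, against 10.6% of all genes. The part of muscle RNA in the Cox8b difference on RD at 2 weeks was not tested. Single markers went both ways on RD at 2 weeks. The myosin light chain Mylpf was at 0.122, 4.41 and 6.74 CPM in females and 0.306 to 0.360 CPM in males (3.5 ± 0.96, adjusted p = 0.046). Creatine kinase Ckm, at 0.275, 7.64 and 12.9 CPM against 5.59, 0 and 21.3 CPM, and the actin Acta1, at 12.0, 48.3 and 62.6 CPM against 60.7, 43.3 and 181 CPM, did not pass (adjusted p = 0.96 and 0.39).

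Adrb3, the β3-adrenergic receptor through which noradrenaline acts on mouse fat cells (chr8:27225776-27250616, minus strand), was abundant in both sexes. It stood at 844, 770 and 637 CPM in RD females and 271, 303 and 299 CPM in HFD females at 12 weeks, a gap between the diets that was wider than the spread within either. The log2 fold change was -1.37 ± 0.45 with an adjusted p of 0.14 by edgeR, 0.037 by DESeq2 and 0.0077 with the spread taken from these 6 libraries alone. In males at 12 weeks RD gave 706, 571 and 242 CPM and HFD 412, 206 and 202 CPM (-0.89 ± 0.45, adjusted p = 0.14). The low RD value belongs to library 4, one of the 3 libraries high in smooth muscle markers, and without those 3 the value was -1.20 (adjusted p = 0.031). No comparison of sex passed for Adrb3, with adjusted p of 0.38 to 0.98. Adrb1, the β1-adrenergic receptor, stood at 1.60 to 7.03 CPM and was not called in any comparison of diet or sex.

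Kcnk3, an acid-sensitive potassium channel that marks brown and beige cells (chr5:30588170-30625271, plus strand), was higher in females on RD at both times and on HFD at 2 weeks. The values on RD at 2 weeks were 75.0, 101 and 141 CPM in females and 31.2, 40.8 and 50.9 CPM in males (1.36 ± 0.36, adjusted p = 0.040). On HFD at 2 weeks the values were 44.0, 64.5 and 100 CPM and 35.3, 25.3 and 23.2 CPM (1.31 ± 0.36, adjusted p = 0.049). On RD at 12 weeks they were 93.2, 112 and 37.4 CPM and 46.6, 25.8 and 35.3 CPM, with female library 8 inside the male range (1.17 ± 0.36, adjusted p = 0.046). All 3 calls lay just inside the threshold, and each was lost without several single libraries: on RD at 2 weeks without any but female library 1 (adjusted p of 0.061 to 0.17), on HFD without female library 2 (0.069) or 5 (0.17) or male library 13 (0.14) or 14 (0.14), and on RD at 12 weeks without female library 5 (0.13) or 7 (0.14) or male library 3 (0.14) or 4 (0.13).

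Prdm16 and Ebf2 are transcription factors that set and keep the brown fat identity. Prdm16 stood at 14.7, 13.1 and 16.5 CPM in HFD males at 12 weeks and at 11.6, 6.46 and 4.91 CPM in RD males, a rise of 0.95 ± 0.31 (adjusted p = 0.031). With the number that these male libraries share in their names as a replicate block, it was 1.04 (adjusted p = 0.023). The call was lost when scaled to the adipocyte markers and with the compared groups alone. It was also lost without HFD library 2 (0.066) or 4 (0.098) or RD library 3 (0.10) or 4 (0.14), with values of 0.71 to 1.39. RD males at 12 weeks carried Crisp1 at 3020 to 5450 CPM and HFD males at 1.14 to 6.30 CPM. On HFD 7 of 8 epithelial markers were lower and 10 of 12 macrophage markers higher, beside 28.2% of all genes called. The part of these differences in the Prdm16 value was not tested. Ebf2 ran from 11.7 to 52.2 CPM over all 24 libraries and passed in none of the comparisons. The 2 lowest values, 11.7 in RD male library 4 at 12 weeks and 12.0 in HFD female library 1 at 2 weeks, belong to the libraries high in smooth muscle markers.

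Other genes of the thermogenic pathway were read from 6 lists with 108 entries. On HFD at 2 weeks 5 of 25 tested brown and beige fat genes were higher in females and none lower, against 3.8% of all genes called and 2% called higher, led by Otop1 (a proton channel, 5.01 ± 0.85, adjusted p = 0.0042), Cpt1b (which takes fatty acids into mitochondria, 3.41 ± 0.59, 0.0046) and Letmd1 (1.19 ± 0.22, 0.0073). The median of that list was 0.96. Of 26 regulators 3 were higher in females there and none lower: Cebpb (1.16 ± 0.24, adjusted p = 0.014), Esrra (0.66 ± 0.17, 0.034) and Ppargc1b, the relative of Ppargc1a (1.66 ± 0.44, 0.042). On RD at 2 weeks the same list of brown and beige fat genes gave 3 higher (Otop1 3.31, Letmd1 0.86 and Cpt1b 2.03, with overlapping libraries in Otop1 and Cpt1b) and none lower, against 4.28% called. The lists of β-adrenergic and lipolysis genes (20), cytochrome c oxidase subunits (13), uncoupling genes (15) and thyroid hormone genes (7 tested) gave no call in either comparison.

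On RD at 12 weeks, females against males, 3 brown and beige fat genes were higher (among them Slc36a2 1.79 ± 0.38, adjusted p = 0.0097) and 1 lower (Gk) of 25 tested, beside 10.6% of all genes called. Among the 26 regulators 4 were higher and 2 lower, led by Irf4 (3.90 ± 0.63, adjusted p = 0.0022), Cebpb (1.39 ± 0.24, 0.0037) and Esrrg (-2.29 ± 0.49, 0.010). Irf4 is a cold- and fasting-induced partner of PGC-1α. Adcy3 (1.47 ± 0.39, adjusted p = 0.029) and Gpd2 (1.48 ± 0.38, 0.027) were higher in females from the lists of β-adrenergic and uncoupling genes. On HFD at 12 weeks no brown and beige gene or regulator was called, beside 2.85% of all genes. Ucp2 (-1.06 ± 0.20, adjusted p = 0.0046) and the creatine carrier Slc6a8 (-1.68 ± 0.34, 0.0090) were lower in females there. The difference of the diet effects between the sexes at 12 weeks was lower in females for Irf4 (-3.78 ± 0.83, adjusted p = 0.031), Cebpb (-1.58 ± 0.34, 0.029) and Ucp2 (-1.52 ± 0.28, 0.0095), beside 1.25% of all genes called.

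Diet in females gave no call on any of the 6 lists at 2 weeks, where only 0.235% of all genes were called. At 12 weeks Irf4 fell by 3.06 ± 0.61 on the log2 scale (adjusted p = 0.013, with overlapping libraries), and Gpd2, the mitochondrial glycerol phosphate dehydrogenase, fell by 2.00 ± 0.39 (adjusted p = 0.011). Of all genes, 2.08% were called there and 0.775% were called lower. In HFD females 4 of 25 brown and beige fat genes were lower at 12 than at 2 weeks and none higher, against 1.51% of all genes called, with Ppara (-1.90 ± 0.35, adjusted p = 0.011), Cpt1b (-3.02 ± 0.58, 0.015) and Mpzl2 (-3.18 ± 0.74, 0.040) in front. In HFD males 1 of the 25 was higher and 4 lower at 12 weeks, beside 12.1% of all genes called, led by Otop1 (4.15), Mpzl2 (-3.58) and Pank1 (-2.12), with overlapping libraries in Pank1. The 8 epithelial markers summed to 39.2 to 1250 CPM at 2 weeks and 16.6 to 36.6 CPM at 12 weeks in HFD females. In HFD males their sums were 18.4 to 563 and 6.11 to 34 CPM. The part of these differences in the Mpzl2 values was not tested. Zic1 and Lhx8, transcription factors of classical brown fat named outside the rule given below, were at most 0.591 and 0.0479 CPM in any group mean. The presence of classical brown fat cells was not tested.

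In males at 12 weeks, where 28.2% of all genes were called between the diets, listed genes were called in both directions. Of 25 brown and beige fat genes 3 rose and 5 fell (Mpzl2 -4.16, Slc29a1 1.12 and Otop1 4.4 had the smallest p), and of 26 regulators 3 rose and 2 fell, led by Cebpb (1.41), Tfam (-0.64) and Thra (-0.68). The 8 epithelial markers summed to 240 to 442 CPM in these RD males and 6.11 to 34 CPM in the HFD males. The part of that difference in the Mpzl2 value was not tested. Of 13 cytochrome c oxidase subunits 9 fell and 1 rose, led by Cox6c (-1.85 ± 0.39, adjusted p = 0.0029), Cox4i1 (-1.29 ± 0.29, 0.0044) and Cox7b (-1.14 ± 0.28, 0.0071). Cox8b and Cox7a1 did not pass there, at -0.51 ± 0.46 (adjusted p = 0.42) and -0.90 ± 0.59 (0.25). Ucp2, which macrophages also express, rose by 1.93 ± 0.20 (adjusted p = 4.9e-06), and Arrb1 (1.04), Adcy3 (1.54) and Cideb (-3.81) were called among the β-adrenergic and lipolysis genes. From the uncoupling list Slc6a8 (1.09) rose and Slc25a4 (-0.58) fell.

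Over 11939 genes with a mean log2 CPM of at least 1, the 5 most like Ucp1 by Pearson r of log2 CPM over the 24 libraries were Pde4d, Pcdhb9, Cpt1b, Pdp2 and Ppargc1b, an order that carries the gap between the sexes. Within the 12 female libraries, a reading added after the data were seen, their Pearson r with Ucp1 was 0.76, 0.56, 0.90, 0.80 and 0.82. Pde4d, a phosphodiesterase that breaks down cyclic AMP, was at 34.7 ± 4.57 CPM in HFD females at 2 weeks and 10.4 to 14.0 CPM in the male group means. Those most like Adrb3 were Lgals12 (0.931), Sh3glb2 (0.922), Aldh5a1 (0.898), Sik2 (0.893) and Prkci (0.891). Lgals12, a lectin of fat cell lipid droplets, was at 307 ± 45.7 CPM in RD females and 177 ± 18.7 CPM in HFD females at 12 weeks. These values describe likeness across libraries that differ in sex and in adipocyte content.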

How the data were processed

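PolyA-selected, stranded libraries from 200 ng of RNA of visceral WAT were used, 24 of the 48 in the series, and liver served as background only. The values deposited are expected counts for each gene, as the authors estimated them. In the submitters' processing notes the tools kallisto, edgeR and DESeq2 and the build GRCm38 appear with no role given, so the counting steps and the use of strand are not given in the sources used here. WAT library totals ran from 44.7 to 105 M expected counts. Groups came from the sample names.

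Expected counts were rounded and fitted for the 24 libraries together, with 1 mean per group, in edgeR 4.0.16 (R 4.3.3). Low counts were removed with filterByExpr, libraries were scaled by TMM and the robust form of glmQLFit was used. Calls were made where the adjusted p (Benjamini-Hochberg) was under 0.05 over 18325 genes in each of 14 comparisons of diet, sex, their interaction and time, and in 2 added after the data were seen. SE is the absolute log2 fold change over the square root of the F statistic, an approximation. CPM are unrounded counts over the TMM-scaled library size, and log2 CPM has a prior count of 2. CPM per kb divides by the GENCODE M21 exon length. Permutation tests of correlations drew 100000 shuffles within groups. The test was tried on simulated data.

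The members and gene lists were chosen with earlier results of these data known. Named were all 10 members, fixed relatives and markers, up to 3 called genes with the smallest p from each of 6 pathway lists per comparison, and the 5 genes most like Ucp1 and Adrb3. Zic1 and Lhx8 were among those named outside this rule. In males at 12 weeks, HFD and RD libraries with the same number deviated together (r = 0.108, 0.134 and 0.154 across genes), so the number was used as a block there in an alternative; what the shared number marks is not in the labels. Alternatives were DESeq2 1.42.0, its median-of-ratios scaling, scaling to adipocyte markers, no filter, the compared groups alone, a prior count of 0.5, the block, 1 library left out, and the 3 libraries high in smooth muscle markers (over 3000 CPM) left out.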

Additional observations from a re-analysis of the deposited data

Results flagged for a closer look

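In females the diet effect on Dio2 and on Ppargc1a differed between the times by edgeR, in a test added after these values had been seen. HFD over RD was 3.20 at 2 weeks and -2.47 at 12 weeks on the log2 scale for Dio2, a difference of -5.67 (edgeR adjusted p = 0.0096). For Ppargc1a it was 2.65 and -2.07, a difference of -4.71 (edgeR adjusted p = 0.0096). With the spread estimated from the female groups alone, neither gene was called. The times come from separate cohorts. Of the 13 genes called in that difference, 4 were lower. The other 2 of the 4, Dusp8 (-2.16 ± 0.35, adjusted p = 0.013) and Dusp16 (-1.66 ± 0.22, adjusted p = 0.0087), both dual-specificity phosphatases of MAP kinases, were named after their values were seen. Dusp8 had mean levels of 4.87 CPM on RD and 18.7 on HFD at 2 weeks, and 12.8 and 11 at 12 weeks.

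Liver libraries entered no comparison here. Liver HFD female library 1 at 2 weeks held Ucp1 at 5.47 CPM (unscaled, 406.2 expected counts), Dio2 at 0.98 CPM (72.73 expected counts) and Cox8b at 0.586 CPM (43.52 expected counts). The highest values among RD liver libraries, taken gene by gene, were 0.609, 0.16 and 0.0786 CPM, and the second highest among HFD liver libraries 1, 0.218 and 0.186 CPM. Of the fat cell genes read there, Adipoq (2.89 CPM against at most 1.23 in the others), Fabp4 (21.3 against 12.7) and Cfd (4.83 against 3.41) were highest in that liver library. Lep (0.0359 CPM) ranked 6 of 24 and Car3 (1200 CPM) 22 of 24, and Plin1 was listed at 0 in all. The part of fat tissue RNA in these values was not tested.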

How the results depend on the processing

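No member changed direction in a called result, and of 2334 values of single members under an alternative 2204 kept their side of the threshold, 24 crossed to a call and 106 lost one. Counts of members called moved as follows. For diet in females at 2 weeks the 2 calls became 0 with no filter, with the groups alone, and without the 3 libraries high in smooth muscle markers. The females at 2 weeks share 2 numbers that do not pair by the data (r = 0.119 and -0.1), and with the replicate block the count was 0. For males at 12 weeks the replicate block changed no call. For diet in females at 12 weeks DESeq2 gave 4. For diet in males at 12 weeks the 1 call became 0 scaled to the adipocyte list and with the groups alone. For sex on RD at 2 weeks the 5 calls became 1 scaled to the adipocyte list, 3 with no filter and 2 with the groups alone. For sex on HFD at 2 weeks the groups alone gave 2 of 7, and on RD at 12 weeks scaling to the adipocyte list gave 2 of 4. DESeq2 gave 1 for sex on HFD at 12 weeks, 2 for the interaction at 2 weeks and 1 at 12 weeks, where the groups alone also gave 1. Over all genes, DESeq2 called 72 of 24886 in the interaction at 2 weeks and 1372 of 24886 at 12 weeks. The groups alone called 941 of 17589 there. For time on HFD the 4 calls in females became 0 with the groups alone, and the 0 in males became 1 with the groups alone, without the 3 libraries and with DESeq2. All genes called in males in these settings were 1684 of 16432, 3437 of 18549 and 3469 of 24886. The change of the diet effect in females went from 2 to 0 with the groups alone. Of the genes paired with Ucp1, 1 passed over all 24 centred libraries, 6 without centring and 0 without the 2 libraries farthest from the median.

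With 1 library left out the count was 0 to 2 for diet in females at both times, 0 to 1 in males at 12 weeks, 0 to 5, 5 to 7, 2 to 3 and 0 to 1 for sex on RD and HFD at 2 weeks and RD and HFD at 12 weeks, 0 to 1 for the interaction at 12 weeks, 2 to 5 for time in HFD females and 2 to 2 for the change of the diet effect in females. With 3 libraries a group, the fits of the compared groups alone rest on few libraries. Ucp1 in males rests on 0 to 55.54 counts per library.

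Calls over all genes, which give the shares set beside the members, moved as well. Beside the edgeR count, DESeq2, the groups alone and scaling to the adipocyte list gave 1510, 0 and 11 against 43 for diet in females at 2 weeks, 985, 749 and 139 against 381 in females at 12 weeks, and 6382, 3075 and 1231 against 5168 in males at 12 weeks. For sex they gave 2020, 549 and 236 against 785 on RD at 2 weeks, 1934, 28 and 440 against 696 on HFD at 2 weeks, 3863, 1463 and 235 against 1943 on RD at 12 weeks, and 1192, 1167 and 170 against 522 on HFD at 12 weeks. For time on HFD they gave 1314, 0 and 1374 against 276 in females and 3469, 1684 and 438 against 2210 in males, and for the change of the diet effect in females 327, 0 and 4 against 13.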
